A study of Mus musculus with 6 samples.

Results

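The genes described here encode the chains of the receptors through which activated group 2 innate lymphoid cells (aILC2s) receive the alarmins IL-33, IL-25, TSLP and IL-18 and the growth cytokines IL-7 and IL-2. They were chosen by their known function, with earlier results of these data known, as *Il1rl1*, *Il1rap*, *Il17rb*, *Il17ra*, *Crlf2*, *Il7r*, *Il18r1*, *Il18rap*, *Il2ra* and *Il2rg*, and these 10 genes were all found among the 16381 genes listed. The samples were ILC2s sorted from the lungs of wild type BALB/cJ mice, described as females of 6 to 8 weeks, that had received 0.5 µg of recombinant IL-33 intranasally each day for 3 days. The sorted cells were cultured ex vivo for 24 h with 250 µM melatonin in 3 samples, or with DMSO as vehicle in the other 3, and their RNA was sequenced in bulk. The paper lists added IL-2 and IL-7 for the 24 h cultures of its metabolic assays, and names no medium for the sequenced cells. All groups shared the IL-33 challenge, and no sample came from unchallenged mice. The cells were gated as live, CD45+, lineage-negative, ST2+ and CD127+, to a purity above 95%. ST2 and CD127 are the proteins of *Il1rl1* and *Il7r*, so these 2 chains were present on the cells by selection before the culture began.

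Alarmins are cytokines that epithelial and stromal cells of the airway release on damage or allergen contact, and ILC2s answer them with type 2 cytokines without any antigen receptor. IL-33 binds ST2 (*Il1rl1*), which then recruits the shared accessory chain IL-1RAcP (*Il1rap*). IL-18 uses a related pair of chains (*Il18r1* and *Il18rap*), and both receptors signal through MyD88, IRAK kinases and NF-κB. IL-25 binds IL-17RB (*Il17rb*), which signals with IL-17RA (*Il17ra*) through the adaptor ACT1. TSLP binds TSLPR (*Crlf2*) paired with the IL-7 receptor α chain (*Il7r*), and IL-7 binds the same α chain paired with the common γ chain (*Il2rg*). IL-2 uses CD25 (*Il2ra*), CD122 and the γ chain, and the receptors of the last 3 cytokines signal through JAK kinases and STAT5. *Il1rl1* also gives rise to a secreted decoy form of ST2, and the gene-level values used here add up both forms.

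Promoter windows were taken from RefSeq (GRCm38.p6), from 250 bases before to 50 bases after each start, for 9 of the 10 genes, and each window had 1 exact match in GRCm39, whose coordinates are given here. *Il17ra* was not in that table. Windows are shown for *Il1rl1* and *Il1rap*, the chains of a receptor that rose together with melatonin, and for *Il2ra* and *Il7r*, which fell. The motifs searched on both strands were the GATA core GATAA, the STAT site TTCNNNGAA, the NF-κB-like site (GGG and CC with any 5 bases between them), the antioxidant response element core TGACNNNGC and the E-box CACGTG. Capitals mark a match to any of them, read as TTATC for GATAA on the opposite strand, and matches of the NF-κB-like site can overlap. Each window is written 5′ to 3′ on the strand of its gene, and positions count from the start site in RefSeq, which for *Il7r* lies 300 bases inside the annotated gene.
Il1rl1, upstream start, chr1:40468480-40468779, + strand: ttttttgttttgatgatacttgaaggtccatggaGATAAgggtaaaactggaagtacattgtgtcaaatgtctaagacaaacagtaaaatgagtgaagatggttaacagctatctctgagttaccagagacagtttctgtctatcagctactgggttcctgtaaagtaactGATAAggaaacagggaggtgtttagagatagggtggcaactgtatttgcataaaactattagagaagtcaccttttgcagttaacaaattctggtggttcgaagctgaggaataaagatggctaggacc
Il1rl1, downstream start, chr1:40478539-40478838, + strand: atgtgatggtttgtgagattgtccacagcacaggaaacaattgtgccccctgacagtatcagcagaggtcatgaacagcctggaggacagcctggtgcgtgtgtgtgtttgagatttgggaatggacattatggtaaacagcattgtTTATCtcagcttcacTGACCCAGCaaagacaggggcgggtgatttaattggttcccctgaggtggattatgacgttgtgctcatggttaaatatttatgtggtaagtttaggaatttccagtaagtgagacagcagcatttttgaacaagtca
Il1rap, chr16:26400205-26400504, + strand: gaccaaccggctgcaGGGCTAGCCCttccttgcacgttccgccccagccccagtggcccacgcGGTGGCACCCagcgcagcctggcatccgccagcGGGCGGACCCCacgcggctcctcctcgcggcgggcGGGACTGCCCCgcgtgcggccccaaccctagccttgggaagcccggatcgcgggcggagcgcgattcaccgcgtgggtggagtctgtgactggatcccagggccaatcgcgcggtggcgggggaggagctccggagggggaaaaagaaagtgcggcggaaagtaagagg
Il2ra, chr2:11647353-11647652, + strand: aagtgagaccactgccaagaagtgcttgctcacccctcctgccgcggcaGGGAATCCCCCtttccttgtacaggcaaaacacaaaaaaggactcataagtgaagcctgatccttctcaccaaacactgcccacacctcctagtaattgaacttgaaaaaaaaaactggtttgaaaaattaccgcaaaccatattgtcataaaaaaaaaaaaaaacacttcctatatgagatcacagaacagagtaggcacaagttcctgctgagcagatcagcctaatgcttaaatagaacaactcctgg
Il7r, chr15:9529913-9530212, − strand: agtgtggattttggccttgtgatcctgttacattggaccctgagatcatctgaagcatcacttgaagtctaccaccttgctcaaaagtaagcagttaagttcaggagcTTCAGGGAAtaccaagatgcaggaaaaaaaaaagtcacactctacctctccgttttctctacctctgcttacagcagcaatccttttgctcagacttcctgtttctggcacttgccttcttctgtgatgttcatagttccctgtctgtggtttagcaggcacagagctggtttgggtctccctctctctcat

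The window at the upstream start of *Il1rl1* held GATAA at −216 and −79. The window at its downstream start, 10059 bases further along the gene, held TGACCCAGC at −88 and a reverse GATAA at −103. In *Il2ra*, GGGAATCCCC stood at −201, and in *Il7r* TTCAGGGAA stood at −142. Chains that were not called held such sites too. GATAA stood at −209 in *Il18rap* and at 39 in *Il17rb*, and a window of *Il18r1* held the STAT site at −219 and −152. Counted on each strand, the NF-κB-like site had 9 matches in *Il1rap* between −235 and −118, many of them overlapping. By the same count there were 3 overlapping matches in *Il2ra* at −201 and −200, 5 in *Crlf2* and 1 each in *Il17rb* and *Il18r1*. Genes of either direction thus held the site. Of the 32544 RefSeq windows of this length, 25.3% held the GATA core, 8.33% the STAT site, 51% the NF-κB-like site, 12.4% the antioxidant response element core and 7.17% the E-box. The E-box was not found in any of the windows of the 9 genes. The windows also differed in base composition, with 31, 32 and 33 CpG dinucleotides in *Crlf2*, *Il17rb* and *Il1rap* and between 1 and 8 in those of the other genes. A match to these letters is a description of the sequence, and no binding was measured in these samples.

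Each sample held between 17056233 and 20511321 estimated counts. The values given are normalized counts, the authors' estimated counts divided by a size factor for each sample. Of the ILC2 markers, all 12 were listed, and their summed level was between 167745 and 179707 with vehicle and between 115001 and 125441 with melatonin. *Il5*, a product of activated ILC2s, made up 47.4% of the vehicle sum, and without it the sums were 88899 to 93913 and 67425 to 74698. The lineage factor *Gata3* was not called different, at 19365 ± 321 and 20469 ± 3605 (SD, n = 3). Summed markers of most other cell types were lower with melatonin, without overlap between the groups. This held for T cells (1210 to 1349 against 458 to 870, 4 of 8 markers listed), B cells (391.6 to 565.5 against 145 to 241, 3 of 6), NK cells or ILC1s (263 to 343 against 24.1 to 36.1, 5 of 6), ILC3s (429 to 529 against 59.8 to 86.5, 5 of 6), macrophages or monocytes (1433 to 1636 against 364 to 804, 6 of 7), dendritic cells (4027 to 4271 against 864 to 1124, 5 of 6), eosinophils (312 to 357 against 13.1 to 38.2, 4 of 6), neutrophils (15.0 to 77.5 against 1.87 to 8.74, 4 of 6) and endothelium (1008 to 1069 against 310 to 416, 2 of 5). The ranges overlapped for epithelium (950 to 2355 against 1043 to 1260, 7 of 7), mast cells or basophils (5.62 to 58.8 against 1.87 to 67.4, 3 of 6) and erythroid cells (29.3 to 50.6 against 24.04 to 51.28, 2 of 4), and no fibroblast marker was listed. *Cd4* and *Cd8a* were not listed, and the lower dendritic cell sum rested mostly on *Ccr7*, which lymphocytes also use: without it the sums overlapped, at 766 to 815 against 638 to 807. Of the other dendritic cell markers, *Xcr1* (615, 684 and 658 against 802, 599 and 579) and *Flt3* overlapped. *Itgax* (132, 113 and 106 against 1.87, 33.9 and 45.2) and *Zbtb46* (16.8, 17.8 and 21.0 against 2.80, 12.0 and 14.1) were lower without overlap. The overlap for epithelium rested on *Epcam*, which was higher with melatonin: without it the sums were 205 to 1722 against 27.1 to 29.9, and *Scgb1a1* was at 95.2, 21.5 and 1045 with vehicle and at 0, 0 and 1.01 with melatonin. A large part of several other vehicle sums was also 1 gene that is not limited to the cell type named: *Pecam1* for endothelium (99.6%), *Ccr3* for eosinophils (89.7%), *Cd3g* for T cells (82.2%), *Lyz2* for macrophages or monocytes (63.6%) and *Il22* for ILC3s (59.5%). Other markers were lower too, such as *Ncr1* of NK cells or ILC1s, at 104, 101 and 114 with vehicle and 0, 0 and 1.01 with melatonin. The lower sums are values of transcripts and no count of cells. *Il5*, *Ccr7* and *Epcam* were left out after their values were seen. The part of such cells in the results below was not tested.

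Melatonin replicate 1 stood apart from the other melatonin samples. *Xist*, the X-inactivation transcript of female cells, reached 579 normalized counts in melatonin replicate 2 and 1091 in replicate 3 and was between 0 and 13.6 in the other 4 samples. The Y-linked *Ddx3y*, *Uty*, *Kdm5d* and *Eif2s3y* were at 0 in melatonin replicates 2 and 3 and between 298 and 1363 in the others, which goes against the description of the mice as females. Sex-linked transcripts therefore divided the melatonin samples, while the 3 vehicle samples were alike. Each gene is given with all 6 samples and also without melatonin replicate 1, and, as a comparison added after the data were seen, with melatonin replicate 1 alone against the vehicle samples, which all held Y-linked transcripts. The last is a value without a test, since it rests on 1 melatonin sample. Without melatonin replicate 1 every melatonin sample held *Xist* and no Y-linked transcript while every vehicle sample held Y-linked transcripts, so that in that comparison the sex of the donors and the treatment cannot be told apart, and with all 6 samples they are confounded in part. The sample numbers in the labels run apart by treatment, so that a batch following them, if there was one, cannot be told apart from the treatment. Nothing in the labels says that the samples of a group came from separate mice or cultures, so the p-values measure the spread between these samples.

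With melatonin, 4 of the 10 receptor chains were higher (*Il17ra*, *Il1rap*, *Il1rl1* and *Il2rg*), 3 were lower (*Il7r*, *Il2ra* and *Crlf2*) and 3 were not called (*Il17rb*, *Il18r1* and *Il18rap*). In the same test 49.2% of the 14419 genes passed an adjusted p of 0.05, 24.5% as higher and 24.7% as lower, so that the count among the receptor chains is read against a background in which about every other gene was called. The median log2 fold change was 0.06 over the 10 chains and −0.00458 over all genes tested. For 7 of the 10 chains the groups did not overlap, beside 60.4% of all genes tested. In a bulk sample, fewer cells that express a gene and less RNA per cell cannot be told apart. Adjusted p-values are those of limma, with Benjamini-Hochberg adjustment over all genes tested.

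**Figure D1:**
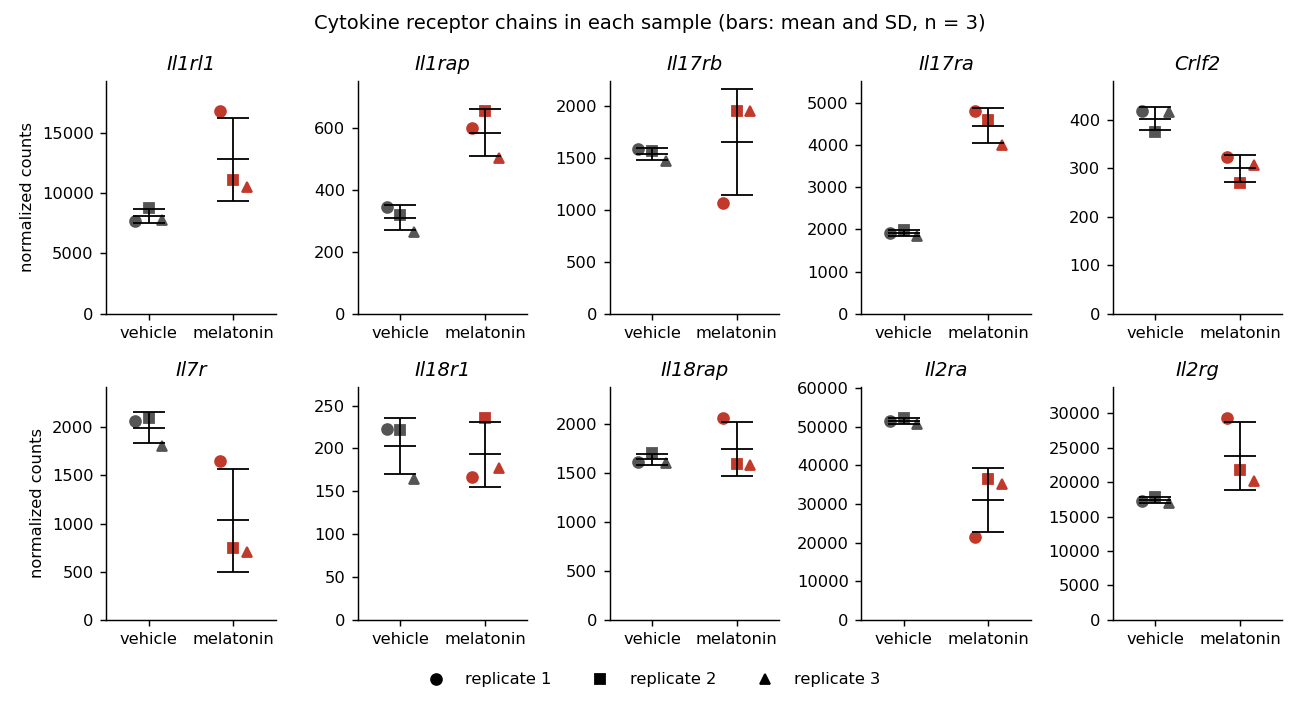
Normalized counts (vertical axes, from 0) of the 10 receptor chains in the 3 vehicle (grey) and 3 melatonin (red) samples, with symbols for the replicates and bars for mean and SD. The vehicle samples lie close together for most genes, while melatonin replicate 1 lies apart from replicates 2 and 3 for *Il1rl1*, *Il17rb*, *Il7r*, *Il18rap*, *Il2ra* and *Il2rg*.

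Both chains of the IL-33 receptor rose with melatonin. *Il1rl1* (ENSMUSG00000026069, GRCm39 chromosome 1 from 40468730 to 40504575, + strand), which encodes ST2, was at 7698, 8735 and 7793 normalized counts in vehicle replicates 1, 2 and 3 and at 16787, 11120 and 10498 in melatonin replicates 1, 2 and 3. Every melatonin sample lay above every vehicle sample, and melatonin replicate 1 was the highest by a wide margin. The means were 8075 ± 574 and 12802 ± 3466 (SD, n = 3), a 1.59-fold difference, with a log2 fold change of 0.63 (SE 0.16, limma adjusted p = 0.0113). Without melatonin replicate 1 the log2 fold change was 0.42 (limma adjusted p = 0.00194), and with that replicate alone it was 1.06. *Il1rl1* was called in all 6 fits that left out 1 sample each.

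*Il1rap* (ENSMUSG00000022514, chromosome 16 from 26400350 to 26548880, + strand) encodes IL-1RAcP, the accessory chain that ST2 shares with the IL-1 receptor and the IL-36 receptor. It was at 343, 320 and 264 normalized counts with vehicle and at 598, 652 and 502 with melatonin. The melatonin samples were all above the vehicle samples and replicate 1 lay between the other two. The rise was 1.89-fold, with a log2 fold change of 0.92 (SE 0.14, limma adjusted p = 0.00104). It was 0.89 without melatonin replicate 1 and 0.96 with that replicate alone, so that the change of *Il1rap* did not divide the melatonin samples as that of *Il1rl1* did. Per kilobase of exons, *Il1rap* had the lowest mean of the 10 chains in both groups, but by the longest transcript *Il18r1* was below it with melatonin, at 44.8 ± 8.73 against 63.9 ± 8.34 (SD, n = 3).

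The chains of the IL-18 receptor, encoded next to *Il1rl1*, were not called. *Il18r1* (ENSMUSG00000026070, chromosome 1 from 40504712 to 40540014, + strand), the ligand-binding chain, was at 222, 221 and 165 normalized counts with vehicle and at 166, 236 and 177 with melatonin. The groups overlapped, with a log2 fold change of −0.07 (95% interval −0.50 to 0.35, limma adjusted p = 0.766). It was 0.0253 without melatonin replicate 1 and −0.27 with that replicate alone, so that its sign also changed with the samples counted. *Il18rap* (ENSMUSG00000026068, chromosome 1 from 40554522 to 40590865, + strand), the accessory chain, was at 1615, 1701 and 1599 with vehicle and at 2065, 1592 and 1580 with melatonin. Melatonin replicate 1 was above and replicates 2 and 3 were below every vehicle sample, and the log2 fold change was 0.08 (95% interval −0.17 to 0.33, limma adjusted p = 0.573). It was −0.05 without melatonin replicate 1 and 0.33 with that replicate alone.

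The chains of the IL-25 receptor differed from each other in their response. *Il17ra* (ENSMUSG00000002897, chromosome 6 from 120440104 to 120464520, + strand), the signalling chain shared by several IL-17 family receptors, had the largest change among the 10 genes when all 6 samples were counted. It was at 1925, 1989 and 1853 normalized counts with vehicle and at 4805, 4603 and 3999 with melatonin. All melatonin samples were at more than 2 times the level of any vehicle sample. The means were 1922 ± 68.2 and 4469 ± 420 (SD, n = 3), a 2.32-fold rise, with a log2 fold change of 1.21 (SE 0.09, limma adjusted p = 3.6e-05). The log2 fold change was 1.16 without melatonin replicate 1 and 1.32 with that replicate alone.

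*Il17rb* (ENSMUSG00000015966, chromosome 14 from 29716082 to 29730956, − strand), which binds IL-25 and gives the receptor its specificity, was at 1583, 1567 and 1474 normalized counts with vehicle and at 1065, 1950 and 1950 with melatonin. Melatonin replicate 1 was below every vehicle sample and melatonin replicates 2 and 3 were above every vehicle sample. The log2 fold change over all samples was 0.05 (95% interval −0.42 to 0.52, limma adjusted p = 0.862), and it was not called. Without melatonin replicate 1 it was 0.34 (limma adjusted p = 0.00448), and with that replicate alone it was −0.53. The sign of the *Il17rb* value followed the split of the melatonin samples by sex-linked transcripts, and in the comparison without replicate 1 sex and treatment cannot be told apart.

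**Figure D2:**
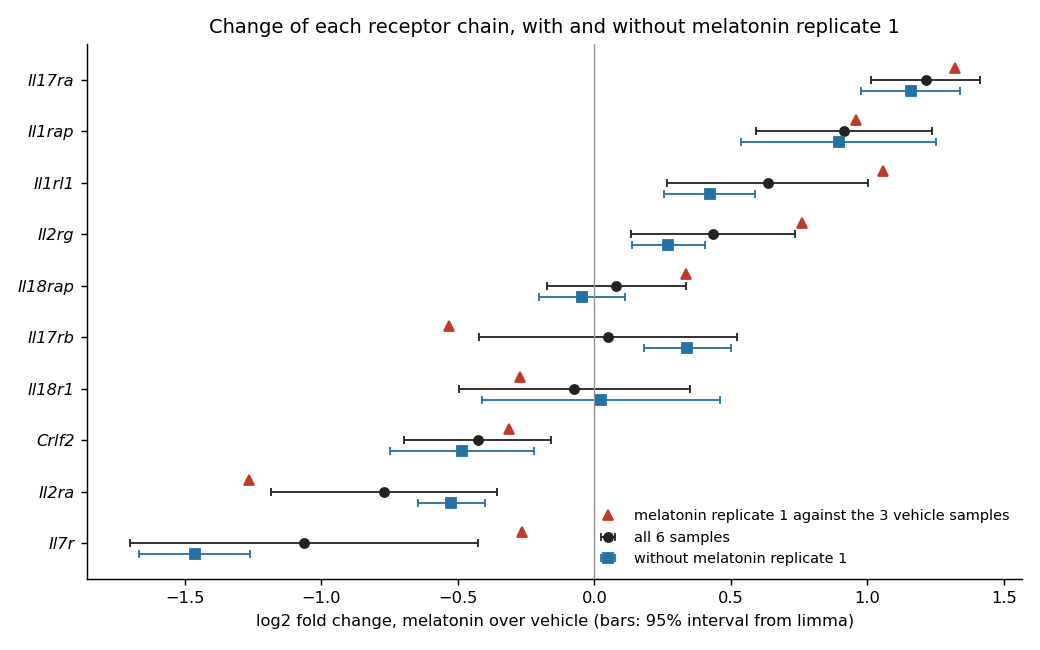
Log2 fold change of melatonin over vehicle (horizontal axis) for each receptor chain, over all 6 samples (black) and without melatonin replicate 1 (blue), both with 95% intervals from limma, and for melatonin replicate 1 alone against the 3 vehicle samples (red, no interval). *Il17ra* and *Il1rap* have like values in the 3 comparisons, *Il17rb* changes sign, and *Il7r* moves from −1.46 without the replicate to −0.27 with that replicate alone.

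Both chains of the TSLP receptor were lower with melatonin. *Crlf2* (ENSMUSG00000033467, chromosome 5 from 109702571 to 109706990, − strand), which encodes the TSLP-binding chain, was at 417, 375 and 415 normalized counts with vehicle and at 323, 269 and 307 with melatonin. No melatonin sample reached the level of a vehicle sample. The mean was 1.34-fold lower, with a log2 fold change of −0.43 (SE 0.12, limma adjusted p = 0.0163). It was −0.48 without melatonin replicate 1 (limma adjusted p = 0.00916). The call was lost when vehicle replicate 1, vehicle replicate 3 or melatonin replicate 2 was left out, with limma adjusted p between 0.0524 and 0.0631. With melatonin replicate 1 alone the log2 fold change was −0.31.

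*Il7r* (ENSMUSG00000003882, chromosome 15 from 9505874 to 9530262, − strand) encodes CD127, the α chain of both the IL-7 and the TSLP receptor. It was at 2071, 2102 and 1811 normalized counts with vehicle and at 1655, 743 and 700 with melatonin. All melatonin samples were below the vehicle samples, replicate 1 by a small margin and replicates 2 and 3 by more than 2 times. The means were 1995 ± 160 and 1032 ± 539 (SD, n = 3), a 1.93-fold fall, with a log2 fold change of −1.06 (SE 0.28, limma adjusted p = 0.0130). Without melatonin replicate 1 the log2 fold change was −1.46 (limma adjusted p = 1.5e-05), and with that replicate alone it was −0.27. *Il7r* lost its call without melatonin replicate 2, at −0.89 (limma adjusted p = 0.0529).

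The chains of the IL-2 receptor, the most abundant of the 10, changed in opposite directions. *Il2ra* (ENSMUSG00000026770, chromosome 2 from 11647618 to 11698004, + strand), which encodes CD25, the chain that gives the receptor its high affinity, was at 51580, 52389 and 50819 normalized counts with vehicle and at 21436, 36551 and 35211 with melatonin. The vehicle samples were within a narrow range and every melatonin sample was below it, replicate 1 the lowest. The fall was 1.66-fold, with a log2 fold change of −0.77 (SE 0.18, limma adjusted p = 0.00799). It was −0.52 without melatonin replicate 1 (limma adjusted p = 0.000179) and −1.27 with that replicate alone. *Il2ra* was called in all 6 fits that left out 1 sample each.

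*Il2rg* (ENSMUSG00000031304, chromosome X from 100307984 to 100311861, − strand) encodes the γ chain that the receptors for IL-2, IL-4, IL-7, IL-9, IL-15 and IL-21 share. It was at 17317, 17833 and 16961 normalized counts with vehicle and at 29405, 21709 and 20230 with melatonin. Every melatonin sample was above every vehicle sample, and replicate 1 was the highest. The number of X chromosomes differs between the sexes whose transcripts divided the melatonin samples, and its part in this result was not tested. The rise was 1.37-fold, with a log2 fold change of 0.43 (SE 0.13, limma adjusted p = 0.0236). It was 0.27 without melatonin replicate 1 (limma adjusted p = 0.00599) and 0.76 with that replicate alone. The call was lost when any 1 of the vehicle samples was left out, with limma adjusted p between 0.0616 and 0.0753.

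For 9 of the 10 receptor chains the SD of the log2 value was larger among the melatonin samples than among the vehicle samples, the exception being *Il1rap* at 0.19 in both groups. It was 0.69 with melatonin and 0.12 with vehicle for *Il7r*, 0.50 and 0.06 for *Il17rb*, and 0.43 and 0.02 for *Il2ra*. These were the widest contrasts by the difference of the SDs, while for *Il18r1* the SD was 0.27 and 0.25. Melatonin replicate 1 lay outside replicates 2 and 3, by more than those differed from each other, for 6 of the 10 chains and for 4680 of 9990 genes averaging 100 normalized counts or more, which is 46.8%. The median distance of replicate 1 from the mean of the other two was 0.43 on the log2 scale for the chains and 0.19 for the 9990 genes, while the median difference between replicates 2 and 3 was 0.09 and 0.14. In melatonin replicate 1, *Il1rl1*, *Il2rg*, *Il7r* and *Il18rap* were higher and *Il2ra* and *Il17rb* were lower than in the other melatonin samples.

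Levels were compared between genes per kilobase of exons. With vehicle, *Il2ra* was the highest at 9035 ± 138 normalized counts per kilobase and *Il2rg* followed at 7277 ± 184 (SD, n = 3). *Il1rl1* was at 1171 ± 83.2 and *Il7r* at 428 ± 34.3. *Il18rap* at 243 ± 8.10 and *Il17rb* at 242 ± 9.25 overlapped, and *Il17ra* was at 219 ± 7.77. *Crlf2* was at 169 ± 10.1, *Il18r1* at 41.1 ± 6.67 and *Il1rap* at 20.2 ± 2.65, so that the range from the highest to the lowest chain was 447-fold.

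With melatonin the order of these levels was different at the top and in the middle. *Il2rg* was the highest at 9963 ± 2064 normalized counts per kilobase and *Il2ra* was at 5440 ± 1465 (SD, n = 3), without overlap. *Il17ra*, the seventh with vehicle, was the fourth at 509 ± 47.8, after *Il1rl1* at 1857 ± 503. *Il7r*, the fourth with vehicle, was the seventh at 221 ± 116, and its samples overlapped those of *Il18rap* at 259 ± 40.9, which overlapped those of *Il17rb* at 260 ± 80.3. *Crlf2* was at 126 ± 11.7, and *Il18r1* at 39.2 ± 7.62 and *Il1rap* at 38.2 ± 4.99 could not be told apart by their ranges. This depended on the length used: by the longest transcript *Il18r1*, at 44.8 ± 8.73, and *Il1rap*, at 63.9 ± 8.34, did not overlap (SD, n = 3). The highest chain was at 261 times the lowest.

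The ratio between the chains of a receptor was taken per kilobase in each sample, for 6 pairs of chains. A test of 3 samples against 3 cannot give an exact two-sided permutation p below 0.1, so these ratios are given mainly as values. The ratio of *Il17rb* to *Il17ra* was 1.13, 1.09 and 1.10 with vehicle and 0.305, 0.583 and 0.672 with melatonin. The size of this ratio depends on the length used: by the longest transcript the vehicle levels were 366 ± 14.0 for *Il17rb* and 245 ± 8.71 for *Il17ra* (SD, n = 3), without overlap. The ratio was lower in every melatonin sample than in any vehicle sample. The log2 difference was −1.16 (exact permutation p = 0.1, adjusted over the 6 pairs 0.2), −0.82 without melatonin replicate 1 and −1.86 with that replicate alone.

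For the IL-2 receptor, the ratio of *Il2ra* to *Il2rg* was 1.24, 1.23 and 1.25 with vehicle and 0.305, 0.704 and 0.727 with melatonin, a log2 difference of −1.21 (exact permutation p = 0.1, adjusted 0.2). Without melatonin replicate 1 the difference was −0.80, and with that replicate alone it was −2.03. The ratio of *Il7r* to *Il2rg*, the chains of the IL-7 receptor, was 0.0612, 0.0604 and 0.0547 with vehicle and 0.0288, 0.0175 and 0.0177 with melatonin, a log2 difference of −1.50 (exact permutation p = 0.1, adjusted 0.2). Transcripts of the γ chain were more abundant per kilobase than those of the IL-7 receptor α chain in all 6 samples, and by more with melatonin. In these 3 pairs the groups did not overlap.

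The groups overlapped in the other 3 pairs. The ratio of *Il1rl1* to *Il1rap* was 49.7, 60.6 and 65.3 with vehicle and 62.3, 37.8 and 46.4 with melatonin (log2 difference −0.28, exact permutation p = 0.3, adjusted 0.36). The difference was −0.47 without melatonin replicate 1 and −0.11 without melatonin replicate 2. ST2 transcripts, which here include the secreted form, were far more abundant than those of the accessory chain in every sample. The ratio of *Crlf2* to *Il7r* was 0.396, 0.350 and 0.450 with vehicle and 0.383, 0.710 and 0.860 with melatonin (log2 difference 0.64, exact permutation p = 0.3, adjusted 0.36). The difference was 0.98 without melatonin replicate 1 and 0.40 without melatonin replicate 3. Here melatonin replicate 1 was within the vehicle range and the other two were above it. The ratio of *Il18r1* to *Il18rap* was 0.188, 0.178 and 0.141 with vehicle and 0.110, 0.203 and 0.153 with melatonin (log2 difference −0.15, exact permutation p = 0.7, adjusted 0.7).

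**Figure D3:**
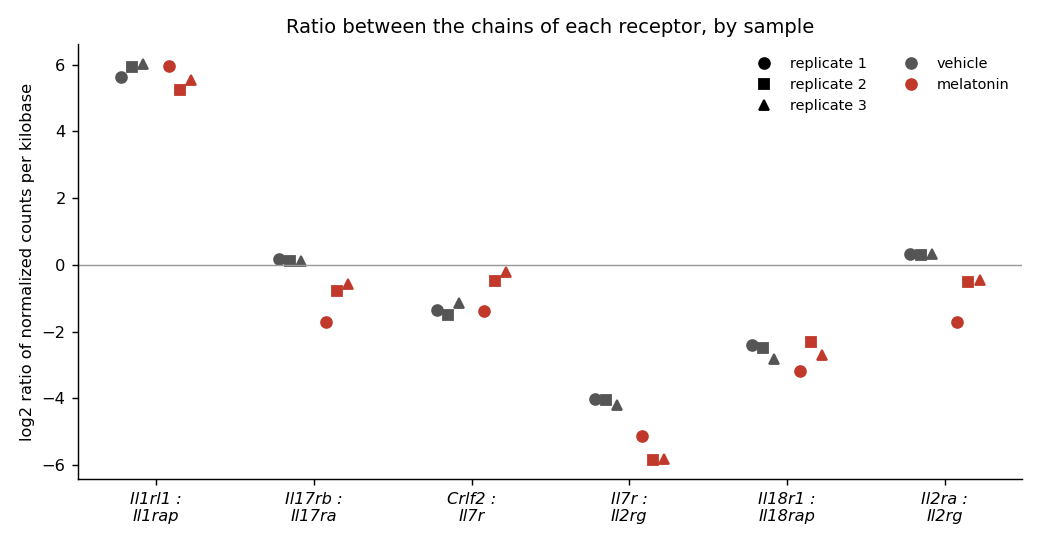
Log2 ratio of normalized counts per kilobase between the chains of a receptor (vertical axis, 0 for equal levels) in each vehicle (grey) and melatonin (red) sample. The melatonin samples lie below the vehicle samples for *Il17rb* to *Il17ra*, *Il7r* to *Il2rg* and *Il2ra* to *Il2rg*, and overlap them for the other pairs.

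*Il1rl1*, *Il18r1* and *Il18rap* lie side by side on chromosome 1 within the IL-1 receptor gene cluster, and 136 bases separate the end of *Il1rl1* from the start of *Il18r1*. Within 500 kb of the start of *Il1rl1*, 30 genes were annotated, 10 of them protein coding, and of the 11 listed 9 passed the filter on low values. Of these 3 were higher, 3 were lower and 3 not called, beside 24.5% higher and 24.7% lower over all genes tested. The receptor genes of the cluster did not move one way. *Il1r2*, the decoy receptor for IL-1, was at 9553, 10408 and 9234 normalized counts with vehicle and at 146, 343 and 428 with melatonin. This was a 31.8-fold fall (log2 fold change −5.12, SE 0.33, limma adjusted p = 2.3e-05).

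*Il1rl2*, the IL-36 receptor, fell from 70.3 ± 5.48 to 28.9 ± 7.40 normalized counts (SD, n = 3), with a log2 fold change of −1.28 (limma adjusted p = 0.00403). *Il1r1*, the signalling receptor for IL-1, was at 6.62 ± 3.49 and 8.80 ± 5.21 and was not called. Beyond *Il18rap*, the sodium-proton exchanger *Slc9a2* rose from 32.0 ± 1.33 to 137 ± 22.7 and *Mfsd9* from 42.7 ± 10.8 to 111 ± 11.8. The RNA *Gm16894*, annotated across the start of *Il1r2* on the opposite strand, fell from 13.7 ± 2.27 to 1.30 ± 1.41, and its reads cannot be told from those of *Il1r2* if the counting did not use strand.

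**Figure D4:**
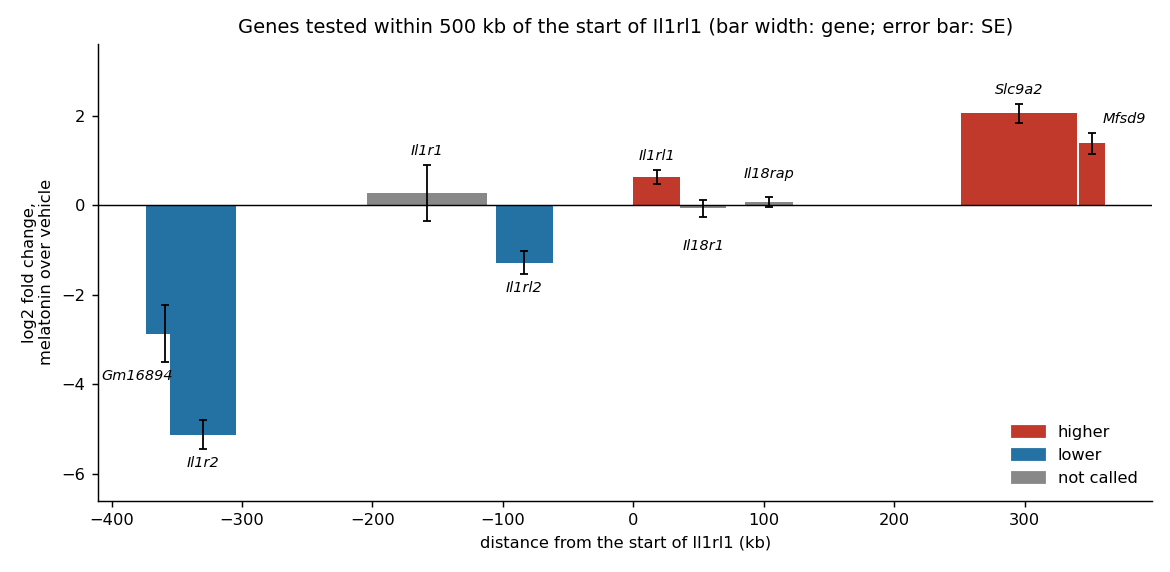
Log2 fold change of melatonin over vehicle (vertical axis; error bars are the SE from limma) for the 9 genes tested within 500 kb of the start of *Il1rl1*, by distance in kb (horizontal axis; the width of a bar is the length of the gene). *Il1r2* at −5.12 and *Il1rl2* at −1.28 lie on the side before *Il1rl1* at 0.63, and *Il18r1* and *Il18rap* after it are near 0.

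The genes around the receptor chains were counted in lists, whose counts are read against the 49.2% of all genes tested that were called. The share called was 66.7% for the other IL-1 and IL-18 receptors, 73.7% for the other cytokine receptors, 42.9% for the ACT1 branch, 61.5% for the JAK and STAT branch, 46.2% for the transcription factors and 65% for ILC2 identity. Of the other IL-1 and IL-18 receptor genes, 6 of 7 were listed and tested, with none higher, 4 lower and 2 not called, and their median log2 fold change was −1.30 beside −0.00458 over all genes. Besides *Il1r2* and *Il1rl2*, these were the receptor antagonist *Il1rn*, at 286, 159 and 229 normalized counts with vehicle and 0, 7 and 6 with melatonin (log2 fold change −5.87, limma adjusted p = 0.000323), and *Sigirr*, an inhibitory member of the family, at 3478, 3395 and 3327 against 1294, 1452 and 1324 (log2 fold change −1.33, limma adjusted p = 1.8e-05). Of the 4 genes of this list that fell, *Il1r2*, *Il1rn* and *Sigirr* are known as a decoy, an antagonist and an inhibitory chain, and *Il18bp*, which binds free IL-18, was at 55.3 ± 25.4 and 33.9 ± 4.09 and was not called.

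The next list held 5 other chains that pair with the γ chain or bind a ligand for such a receptor, and *Il13ra1*, which pairs with the IL-4 receptor α chain in place of the γ chain. All 6 were tested, with none higher, 3 lower and 3 not called, and a median log2 fold change of −0.55. *Il2rb*, which encodes CD122, the signalling β chain of the IL-2 and IL-15 receptors, was at 15091, 15386 and 15506 normalized counts with vehicle and at 8515, 10162 and 9857 with melatonin (log2 fold change −0.69, limma adjusted p = 0.000361). *Il9r* fell by 0.40 and *Il21r*, a gene at a low level, fell by 1.98 on the log2 scale. *Il4ra*, the IL-4 and IL-13 receptor chain, was at 3390 ± 149 and 3218 ± 166 (SD, n = 3) and was not called, nor were *Il15ra* and *Il13ra1*. CD25 and CD122 transcripts were therefore both lower while that of the γ chain was higher.

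Of 3 other IL-17 receptor genes 2 were tested. *Il17rd* was at the floor of 3 counts with vehicle and at 10.6 ± 1.74 normalized counts with melatonin, at least 3.65-fold higher over the group means, and *Il17re* was not called. *Il17rc* was not listed. No abundant IL-17 receptor chain other than *Il17ra* and *Il17rb* was thus among those listed.

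Of 19 other cytokine receptor chains tested, 7 were higher, 7 were lower and 5 not called, with a median log2 fold change of −0.05. The interferon receptor chains *Ifngr2*, at 519 ± 38.0 and 1611 ± 322 normalized counts (SD, n = 3), and *Ifnar1*, at 1118 ± 86.3 and 2711 ± 357, rose by 1.62 and 1.27 on the log2 scale. *Il6st*, the gp130 chain of the IL-6 family, rose by 0.84. *Lifr*, the LIF receptor, was at the floor with vehicle and at 11.7 ± 6.51 with melatonin, at least 4.02-fold higher over the group means. *Il3ra*, the IL-3 receptor α chain, fell from 197 ± 17.9 to 61.3 ± 17.3. *Csf2rb*, the β chain shared by IL-3, IL-5 and GM-CSF, fell from 578 ± 47.0 to 53.5 ± 42.2, and its near-identical copy *Csf2rb2*, the IL-3 receptor β chain of the mouse, fell from 158 ± 6.52 to 16.2 ± 8.43, although reads shared by these copies may have been split between them. *Il12rb2*, a chain of the IL-12 receptor, was at 38, 28 and 39 with vehicle and at 0 in each melatonin sample, which is at least 11.6-fold lower against the floor of 3 counts.

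Apart from *Il4*, *Il9* and *Il17f*, the transcripts of the ligands of the receptors were at low values or not listed. These values do not show which ligands the medium held. Of 12 ligands, 8 were listed and 6 tested, with none higher, 3 lower (*Il17f*, *Il17a* and *Il4*) and 3 not called. *Il33* and *Il2* were at 15.7 ± 16.4 and 5.39 ± 5.10 normalized counts with vehicle, and *Il25*, *Tslp*, *Il7* and *Il21* were not listed. *Il9*, a growth factor that ILC2s make for themselves, was at 441, 462 and 511 with vehicle and at 6, 526 and 510 with melatonin. Melatonin replicate 1 stood apart here as well, and *Il9* was not called (log2 fold change −1.96, limma adjusted p = 0.274).

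In the MyD88 branch downstream of ST2 and the IL-18 receptor, 14 genes were tested, with 6 higher, 1 lower and 7 not called, and a median log2 fold change of 0.11. The share called, 50%, was near the 49.2% of all genes tested. *Irak3*, the kinase-like inhibitor of this branch, was at 523, 602 and 572 normalized counts with vehicle and at 1904, 1415 and 1333 with melatonin (log2 fold change 1.44, limma adjusted p = 0.000117). *Map3k7*, which encodes TAK1, rose by 1.08, and the IκB kinase genes *Chuk*, *Ikbkg* and *Ikbkb* rose by 0.85, 0.61 and 0.28 on the log2 scale. *Tollip*, which restrains IRAK signalling, rose by 0.49. The adaptor *Myd88* fell by 0.33 on the log2 scale, from 2461 ± 49.1 to 1961 ± 190 (SD, n = 3), and *Irak1*, *Irak2*, *Irak4* and *Traf6* were not called.

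In the list made for the ACT1 branch downstream of the IL-25 receptor, 7 genes were tested, with 1 higher, 2 lower and 4 not called. The median log2 fold change was −0.07. Of the called genes, *Tradd* and *Traf3ip3* are not established parts of this branch. *Traf3ip2*, which encodes ACT1 itself, was at 735 ± 64.8 and 701 ± 72.7 normalized counts (SD, n = 3) and was not called. *Tradd* rose by 0.78 on the log2 scale. *Traf3ip3* and *Traf3* fell by 0.91 and 0.40 on that scale. The rise of *Il17ra* was larger than any change in this list.

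In the list made for the JAK and STAT branch downstream of the IL-7, TSLP and IL-2 receptors, 13 genes were tested. Of these, 6 were higher, 2 lower and 5 not called, with a median log2 fold change of 0.11. The list also held *Stat6* and *Tyk2*, which are known mainly from other cytokine receptors. *Jak2*, which TSLPR uses, rose by 1.53 on the log2 scale, from 1134 ± 319 to 3273 ± 903 normalized counts (SD, n = 3). *Jak1*, which pairs with the ligand-specific chains, rose by 0.64, *Stat6* rose by 0.48 and *Tyk2* rose by 0.44 on that scale. *Jak3*, the kinase bound to the γ chain, was at 6916 ± 285 and 7015 ± 856 and was not called. *Stat5b* fell by 0.28, and *Stat5a*, at 1186 ± 51.4 and 939 ± 175, was not called (limma adjusted p = 0.0573). *Jak2* was thus higher while *Crlf2* was lower, and *Jak3* was not called while *Il2rg* was higher.

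Of 12 genes known as targets or feedback regulators of STAT5, 7 were higher, 2 were lower and 3 not called, with a median log2 fold change of 0.34. *Socs2* rose by 0.86, *Mcl1* by 0.79, *Pim2* by 0.69, *Bcl2l1* by 0.68 and *Cish* by 0.31 on the log2 scale. *Socs3*, a feedback inhibitor that several cytokines induce, fell by 1.49, and *Socs1* fell by 0.29 on that scale. The share called was 75% of this list, 58.3% as higher, beside 49.2% and 24.5% of all genes tested.

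**Figure D5:**
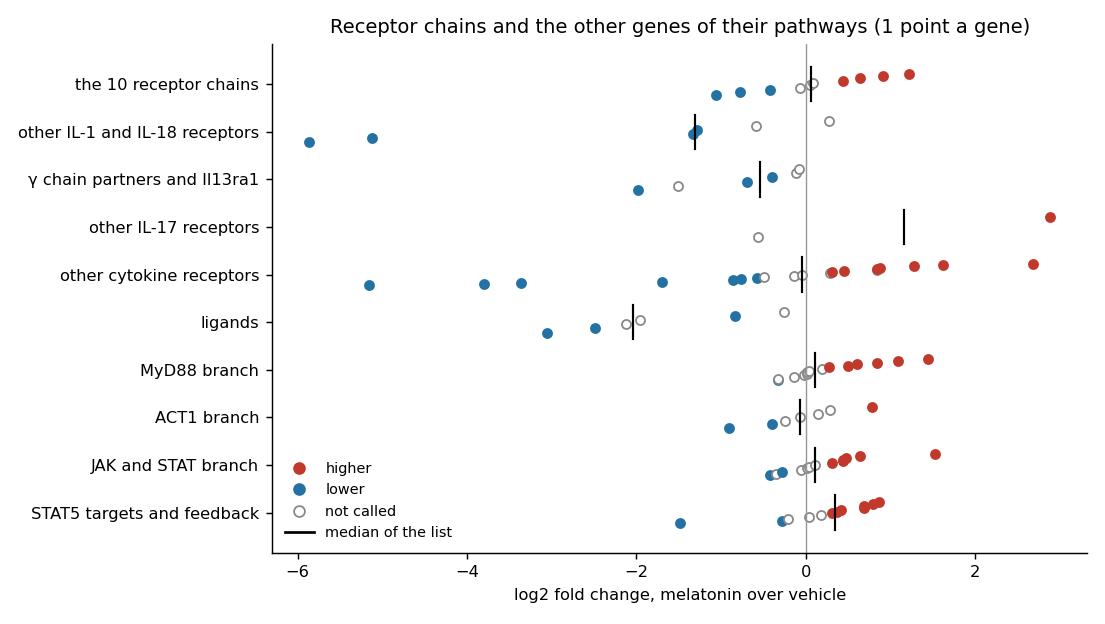
Log2 fold change of melatonin over vehicle (horizontal axis) for each gene tested in the 10 receptor chains and in the lists of their partners, ligands and signalling genes, with 1 point a gene, filled where limma's adjusted p was under 0.05, and a bar at the median of each list. The other IL-1 and IL-18 receptors and the ligands lie mostly below 0, and the STAT5 targets mostly above it.

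Among transcription factors known to act on these receptor genes, 13 of 14 were tested, with 3 higher, 3 lower and 7 not called. *Gata3*, *Bcl11b* and *Nr3c1* were not called. *Foxo1*, known to drive *Il7r* in lymphocytes, was at 987 ± 352 and 1668 ± 288 normalized counts (SD, n = 3) and rose by 0.81 on the log2 scale, while *Il7r* fell. *Nfkb1* fell by 1.27, from 6801 ± 85.6 to 2825 ± 179, and *Runx3* and *Ets1* fell by 0.74 and 0.46 on the log2 scale. *Rora*, an ILC2 lineage factor, rose by 0.64, and *Bach2* rose from 14.5 ± 2.18 to 75.5 ± 45.5. Among 20 genes of ILC2 identity and function, 3 were higher, 10 were lower and 7 not called, and *Klrg1* fell by 2.16, *Il13* fell by 2.22, *Thy1* fell by 2.88 and *Ly6a* fell by 4.61 on the log2 scale.

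Genes with the pattern most like that of a receptor chain over the 6 samples were found by the smallest root mean square difference of centred log2 values, among genes averaging 100 normalized counts or more. For *Il1rl1* these were *Tpp1* at 0.0527 and *Clcn7* at 0.0584, and for *Il17ra* they were *P2rx4* at 0.0408 and *Faah* at 0.0463. The nearest to *Il17rb* were *Asns* at 0.0721 and *Trib3* at 0.0747, and *Il1rap* had *Zscan29* at 0.0754 and *Ngly1* at 0.0767. *Il7r* had the least close neighbours, *Rgs12* at 0.107 and *Dglucy* at 0.109. The nearest to *Crlf2* were *Sgf29* at 0.0392 and *Pdxk* at 0.0399, to *Il18r1* *Gm10233* at 0.0685 and *Ago3* at 0.0806, and to *Il18rap* *Trp53i11* at 0.0277 and *Tbc1d14* at 0.0363. *Il2ra* was nearest to *Ears2* at 0.0320 and *Lyar* at 0.0424, and *Il2rg* to *Lrrc45* at 0.0306 and *Tex2* at 0.0370. These values cover 6 samples in which treatment follows the numbers in the labels and is confounded in part with sex, and many genes have such patterns.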

How the data were processed

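The deposited table holds a signal for each gene, called normalized counts here: the authors trimmed reads in Partek Flow 12.9.0 (minimum Phred score 35, minimum length 25 bp), aligned them with STAR 2.7.8a to mm39, estimated counts per Gencode M33 gene with the Partek E/M algorithm, stated a filter on genes under 10 counts and divided by a median-ratio size factor. The table still lists 1962 genes under 10 normalized counts in every sample. Since reads were divided among genes, between 72.0% and 73.7% of values under 60 were whole multiples of 1 read at a tolerance of 0.01, and whole reads were not recovered. Of the 16381 identifiers, 16334 matched a gene name.

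Under R 4.3.3, limma 3.58.1 was run (lmFit and trended eBayes) on log2(value + 1), so that fold changes of low genes are understated, for genes at 10 or more in at least 1 sample, with Benjamini-Hochberg adjustment and a threshold of 0.05. Chain ratios used an exact two-sided permutation test. The levels per kilobase used the union of exons. The code of the fit was run on simulated counts with the same dispersion in both groups. This does not test the fit under the unequal spread of the groups seen here. Tables used pandas 2.3.3 and numpy 2.4.6, and figures matplotlib 3.10.9. The receptor genes and the lists were chosen with earlier results of these data known. Genes named are the 10 chains, the largest called changes of each list, genes whose role needed a value and the 2 nearest patterns per chain. Alternatives were other pseudocounts, filters, scalings, limma settings, thresholds, exon lengths, a replicate block and leaving out each sample. Limma's voom on estimated counts and the fit of libraries with Y-linked transcripts were added after the data were seen. No copies were found among the samples, with a chi-square per degree of freedom of at least 6.36 between any of them.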

Additional observations from a re-analysis of the deposited data

How the results depend on the processing

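Of 383 values under an alternative, 348 kept their direction and side of the threshold, or stayed close to the reported value. Leaving out each sample in turn, between 3 and 5 receptor chains were called higher and between 1 and 3 lower, with 1 lower without melatonin replicate 2. At an adjusted p of 0.01, 2 chains were higher and 1 was lower, and when a log2 fold change past 1 was required, 1 was higher and 1 was lower. Where no size of fold change was required, *Il1rl1*, *Il1rap*, *Il17ra* and *Il2ra* kept their calls under every alternative run at the 0.05 threshold. With each sample left out, the log2 fold change was between −0.10 and 0.34 for *Il17rb*, −0.48 and −0.35 for *Crlf2*, −1.46 and −0.84 for *Il7r*, −0.23 and 0.0253 for *Il18r1*, −0.0460 and 0.15 for *Il18rap* and 0.27 and 0.54 for *Il2rg*. *Il17rb* was at −0.0009 with upper quartile scaling. With sample weights *Il18r1* was at 0.0141 and *Il18rap* at −0.0062. Without limma's trend *Il7r*, at −1.06 (limma adjusted p = 0.0551), and *Il2rg*, at 0.43 (limma adjusted p = 0.072), lost their calls.

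Among libraries with Y-linked transcripts only, an alternative added after the data were seen that rests on 1 melatonin sample and is given as values without a test (a fit has to assume that this sample varies like the vehicle samples, and 9 of the 10 chains varied more with melatonin), *Il17rb* was at −0.53, *Il18rap* at 0.33, *Crlf2* at −0.31 and *Il7r* at −0.27, and the log2 ratio of *Il1rl1* to *Il1rap* differed by 0.0985 and that of *Crlf2* to *Il7r* by −0.0487. The ratio of *Il18r1* to *Il18rap* differed by between −0.37 and 0.0715 with each sample left out. By the longest transcript, 0 neighbouring levels overlapped with vehicle. Among genes averaging 100 or more, 0 of the other IL-17 receptors and 1 ligand were called. With each sample left out, between 1 and 4 ligands and between 4 and 9 JAK and STAT genes were called, 4 without vehicle replicate 2. The cause of these shifts was not tested.

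Same-numbered samples did not deviate together (r between −0.05 and 0.01), so the numbers were not taken to pair the samples. With the number as a replicate block, 4 chains were higher and 3 lower, and the calls over all genes were 3160 higher and 3278 lower. Depth limits the genes near 3 counts, such as *Il17rd*, *Il17a* and *Il1r1*.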
